A study of Rattus norvegicus with 18 samples.

Results

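Mature microRNAs (miRNAs) best known from the nervous system were followed in rat heart tissue: rno-miR-124-3p, rno-miR-9a-5p, rno-miR-9a-3p, rno-miR-128-3p, rno-miR-138-5p, rno-miR-129-5p, rno-miR-218a-5p, rno-miR-7a-5p and rno-miR-219a-1-3p, written below without the species prefix. They were chosen by name as neuron-enriched entries of the miRNA files, and all 9 of the 9 names were present among the 599 miRNAs listed for each library. Small RNA had been sequenced from the hearts of Wistar Kyoto rats (WKY, the normal group), of spontaneously hypertensive rats (SHR, the hypertension group, given NS) and of spontaneously hypertensive rats given QDG (QDG), with 6 libraries in each of the 3 groups and 18 in all. What NS and QDG stand for, the dose and duration of treatment and the age of the rats are not given in the sources used. The design text leaves unclear whether the WKY rats received NS. The QDG group carries the SHR background, so it differs from the WKY group in strain as well as in treatment. The design text gives 6 animals per group, while the library labels leave it unsaid whether each library is 1 rat. If some were not, the p-values below measure only the spread between these libraries, which may be technical.

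A miRNA is a short RNA that is cut from an arm of a hairpin transcript and guides Argonaute to messenger RNAs, mostly through its seed, the stretch from base 2 to base 8. miR-124 is the most abundant miRNA of mature neurons and lowers messages of non-neuronal cells, and miR-9, which can use both arms of its hairpin, acts in neural progenitors and neurogenesis. miR-128, miR-138 and miR-129 are enriched in brain, where they have been tied to excitability, dendritic spines and synaptic scaling, and miR-218 is prominent in motor neurons. miR-7 is shared by neurons and endocrine cells such as those of the pancreatic islet, and miR-219 is best known from myelinating oligodendrocytes. Several of these miRNAs are also made outside the nervous system, and the heart itself holds autonomic nerve fibres, intrinsic ganglia and their glia.

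The sequences show which targets each miRNA could share with another and where reads could be confused between entries. RefSeq (rat assembly GRCr8) held the mature sequence of 8 of the 9 miRNAs and of 543 of the 599 listed. They are written 5′ to 3′ with the seed in capitals.
miR-9a-5p: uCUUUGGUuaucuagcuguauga
miR-9a-3p: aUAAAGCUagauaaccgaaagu
miR-128-3p: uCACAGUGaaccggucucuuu
miR-138-5p: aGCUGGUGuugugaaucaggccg
miR-129-5p: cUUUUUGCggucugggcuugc
miR-218a-5p: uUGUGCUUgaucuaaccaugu
miR-7a-5p: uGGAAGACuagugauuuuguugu
miR-219a-1-3p: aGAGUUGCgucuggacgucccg

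The 8 sequences printed carried 8 different seeds, and miR-124-3p is named only. Among the other listed miRNAs with a sequence, miR-7b had the same seed as miR-7a-5p. miR-27a-3p, miR-27b-3p and miR-216a-3p held 6 of the 7 seed bases of miR-128-3p, moved by 1 base, and miR-6331 likewise those of miR-9a-5p. The miR-7b and miR-27 sequences are shown because the levels of these neighbours differ widely.
miR-7b: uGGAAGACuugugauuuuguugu
miR-27a-3p: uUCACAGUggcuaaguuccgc
miR-27b-3p: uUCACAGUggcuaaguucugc

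miR-7a-5p and miR-7b differed by the single substitution A10U, counted from the 5′ end with the miR-7a-5p base first, and the sources used do not state how reads fitting both were counted. Their reads are therefore uncertain, although miR-7b averaged only 10.9 RPM against 1551 RPM for miR-7a-5p. The relation was the opposite for miR-128-3p, at 810 RPM, whose partly matching neighbours miR-27a-3p and miR-27b-3p stood at 12980 and 30600 RPM. Its neighbour miR-216a-3p averaged only 0.110 RPM, and miR-6331, the neighbour of miR-9a-5p, 0.175 RPM. RPM stands for the deposited normalized read count, in reads per 1000000 of a library-specific number of reads that is smaller than the library's sum over miRNAs. It counts whole molecules and so does not scale with length. The sequences above were 21 to 23 bases long.

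In GRCr8 the 2 hairpins of miR-218a-5p lie inside the genes of the axon guidance ligands Slit3 (mature sequence at chr10:20572547-20572567, plus strand) and Slit2 (chr14:66922413-66922433, minus strand). miR-129-5p is encoded at chr3:100657448-100657468 on the minus strand, outside any listed gene, and at chr4:58589716-58589736 on the plus strand, within a long non-coding RNA gene. The single hairpin of miR-219a-1-3p is at chr20:4831641-4831662 on the plus strand, outside any listed gene. miR-9a has 3 hairpins, and the mature reads of such copies cannot be assigned to 1 locus. The hairpins of miR-7a-5p include 1 inside Hnrnpk, which encodes an RNA-binding protein, and those of miR-128-3p lie inside Arpp21 and R3hdm1. Only gene spans were used, so exon and intron were not distinguished, and the strands of gene and hairpin were not compared.

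Libraries held 6420666 to 10169581 reads when summed over miRNAs, and 1 read was worth 0.135 to 0.225 RPM. The values were divided by 4449279 to 7403775 reads, fewer than that sum in each library, so the RPM of a library add up to between 1338745 and 1508772 rather than to 1000000. The sums thus hold more counts than the reads divided by, and whether 1 read was counted for several miRNAs was not tested. Shares below are of the summed reads. SHR replicate 5 and WKY replicate 1 lay farthest from the other 5 libraries of their group over the 410 miRNAs tested, with root mean square log2 differences of 0.49 and 0.425 against 0.227 to 0.368 in the other 16 libraries, and results are given without both where this changed a call. Read beside the heart label, 8 heart muscle miRNAs (such as miR-1b, miR-133a-3p and miR-208a-3p) took 39.1 ± 2.09% of miRNA reads (SD, n = 18; range 36.1 to 43.3%). Most of this came from miR-1b (mean 372100 RPM), miR-1-3p (100700 RPM) and miR-133a-3p (47320 RPM). miR-208a-3p averaged 2083 RPM and miR-208b-3p 233 RPM. Whether the share tells heart from skeletal muscle was not tested. The 9 neuron-enriched miRNAs took 0.227 ± 0.0244% of miRNA reads (range 0.171 to 0.269%). The WKY libraries averaged 0.205 ± 0.0198%, the SHR libraries 0.24 ± 0.017% and the QDG libraries 0.237 ± 0.02% (SD, n = 6 each). Their ranges overlapped, at 0.171 to 0.228% in WKY, 0.219 to 0.256% in SHR and 0.211 to 0.269% in QDG. miR-7a-5p weighed most in these shares, and their difference between groups was not tested.

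The 9 miRNAs fell into an abundant and a scarce set. miR-7a-5p averaged 1551 RPM and ranked 57 of 599, miR-128-3p 810 RPM (rank 73), miR-9a-5p 441 RPM (rank 92) and miR-218a-5p 393 RPM (rank 96). These 4 made up 99.1 ± 0.188% of the reads of the 9 (SD, n = 18). A 23.4-fold step followed to miR-9a-3p at 16.8 RPM, then came miR-129-5p at 6.94 RPM, miR-219a-1-3p at 2.68 RPM, miR-138-5p at 2.38 RPM and miR-124-3p at 0.864 RPM (rank 407). Neighbours in this order kept their places in 17 or 18 of 18 libraries, with 2 exceptions. miR-9a-5p lay above miR-218a-5p in 11 of 18 libraries, and miR-219a-1-3p above miR-138-5p in 11 of 18, so neither pair was separated beyond its spread.

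**Figure D1:**
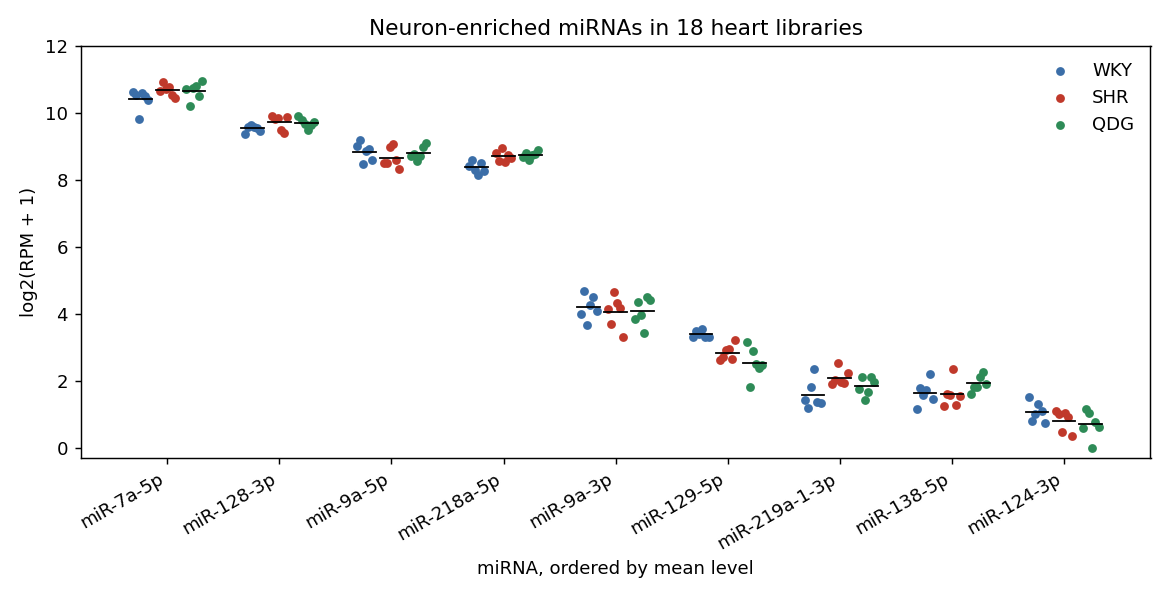
Level of each miRNA on the vertical axis as log2(RPM + 1), in order of mean level from left to right, with 1 point per library (6 each of WKY in blue, SHR in red and QDG in green) and a bar at each group's mean. The 4 abundant miRNAs, from miR-7a-5p at a mean of 1551 RPM to miR-218a-5p at 393 RPM, stand clear of the 5 scarce ones, which run from miR-9a-3p at 16.8 RPM to miR-124-3p at 0.864 RPM.

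miR-124-3p, the defining miRNA of neurons, was thus at the edge of detection. It had 3 to 12 reads in WKY libraries, 2 to 6 in SHR and 0 to 6 in QDG, and reached 1 RPM in 8 of 18 libraries. The single library without a read was QDG replicate 4, where a count of 0 allows up to 0.501 RPM (3 reads, counting error only). Reads of the heart muscle list thus abounded while the miRNA that marks neurons was near 0. The name neuron-enriched is used here for where these miRNAs are best known, not for the cells they came from in these hearts. In bulk tissue, fewer cells of a type and less RNA per cell cannot be told apart.

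Spread between libraries depended on the level. For the 4 abundant miRNAs the coefficient of variation (CV) within a group was 6.72 to 21.3%, while counting error alone gave 1.03 to 2.38%. For miR-124-3p the CV of 39.5% in WKY and 46.2% in SHR was no larger than the 40.3% and 48.0% that counting gives, and in QDG it was 65.1% against 53.5%. miR-129-5p varied by 8.34% in WKY, under its counting error of 14.0%, by 19.7% in SHR against 16.6%, and by 37.7% in QDG against 19.0%. For miR-219a-1-3p the WKY libraries varied by 50.8% against a counting error of 29.9%, with 1 library at 4.14 RPM, while SHR (23.2 against 22.9%) and QDG (24.9 against 26.4%) stayed at counting error. miR-9a-3p, the most abundant of the scarce set, varied by 26.4% in WKY, 32.8% in SHR and 27.9% in QDG, above its counting errors of 10.4, 10.5 and 10.6%.

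**Figure D2:**
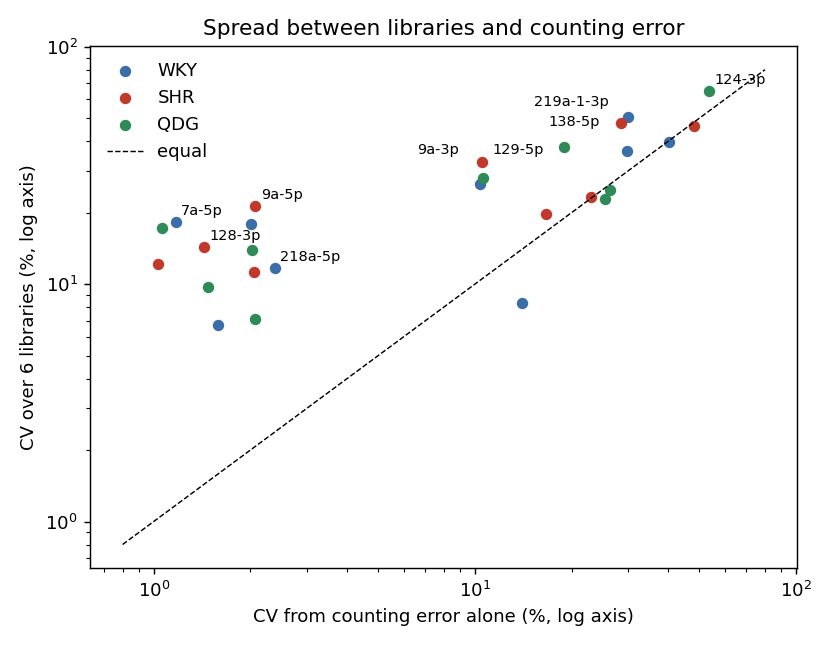
CV over the 6 libraries of a group (vertical, percent, log axis) against the CV that counting error alone would give (horizontal, percent, log axis), 1 point per miRNA and group, each miRNA named at its highest point, with a dashed line where both are equal. The abundant miRNAs lie at counting errors of 1.03 to 2.38% and far above the line, while the scarcest miRNAs lie nearer to it, and miR-129-5p in WKY (8.34 against 14.0%) lies below it.

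SHR against WKY was compared first, for differences of these miRNAs in the hypertensive strain. On the scale of log2(RPM + 1), 3 of the 9 passed the limma test at an adjusted p under 0.05: miR-129-5p fell, while miR-218a-5p rose, as did miR-219a-1-3p. Over all miRNAs tested, 95 of 410 passed (23.2%), 33 of them higher (8.05%) and 62 lower (15.1%). A count of 3 among 9 is not set apart from that share. The median log2 fold change was -0.05 over the 9 and -0.07 over the 410. The groups did not overlap for 1 of the 9 (miR-129-5p) and for 10.2% of the 410. The balance of calls over all miRNAs depended on scaling, with 34.7% of calls higher as deposited and 54.7% higher after scaling by trimmed mean of M-values (TMM), where 52 were higher and 43 lower.

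miR-218a-5p, the miRNA of the Slit genes, ranged in WKY from 282.5 to 388 RPM (median 327.5), in SHR from 366 to 489 RPM (median 412) and in QDG from 384 to 475 RPM (median 430). All 6 SHR libraries lay above the WKY mean and 4 of 6 above every WKY library, so the groups overlapped at their edges. The mean rose from 332 ± 38.8 to 417.5 ± 46.8 RPM (SD, n = 6 each), 1.26-fold. The log2 fold change was 0.33 ± 0.10 (SE, 95% interval 0.13 to 0.53, limma adjusted p = 0.0127).

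miR-129-5p, with the U-rich seed shown above, was the scarcer miRNA but the cleaner separation. It ranged from 8.85 to 10.8 RPM in WKY (median 9.26), from 5.17 to 8.37 RPM in SHR (median 5.98) and from 2.48 to 7.97 RPM in QDG (median 4.62). Every WKY library was above every SHR and every QDG library. These values rest on 40 to 58 reads per WKY library, 23 to 62 per SHR library and 12 to 47 per QDG library. The gap was small, between WKY replicate 1 at 8.85 RPM and SHR replicate 6 at 8.37 RPM. Their 95% intervals from counting error, 6.72 to 11.4 and 6.42 to 10.7 RPM, overlapped. The WKY libraries also varied by less than counting error (8.34 against 14.0%). The mean fell from 9.53 ± 0.795 RPM in WKY to 6.24 ± 1.23 RPM in SHR (SD, n = 6 each), a log2 fold change of -0.55 ± 0.17 (SE, 95% interval -0.91 to -0.20, limma adjusted p = 0.0192). The other arms of its hairpins, miR-129-1-3p and miR-129-2-3p, had 16 and 33 reads over all 18 libraries against its 689 and could not be compared between groups.

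miR-219a-1-3p ranged from 1.29 to 4.14 RPM in WKY (median 1.62), from 2.70 to 4.71 RPM in SHR (median 2.996) and from 1.70 to 3.30 RPM in QDG (median 2.65). The SHR values were higher than 5 of the 6 WKY values, but WKY replicate 4, at 4.14 RPM, lay above 5 of the 6 SHR libraries. The means were 2.11 ± 1.07 RPM in WKY and 3.31 ± 0.767 RPM in SHR (SD, n = 6 each), from 7 to 27 reads per library. The log2 fold change was 0.51 ± 0.19 (SE, 95% interval 0.13 to 0.89, limma adjusted p = 0.0457). This call was the weakest of the 3: it was lost with edgeR (adjusted p = 0.0590) and DESeq2 (adjusted p = 0.0545), without WKY replicate 1, 2, 5 or 6 (adjusted p = 0.0807, 0.114, 0.0998 and 0.0964), without SHR replicate 2, 3, 4 or 6 (0.0660, 0.114, 0.0519 and 0.0850), and without WKY replicate 1 and SHR replicate 5 together (0.0754). Without WKY replicate 4 it was stronger (log2 0.67, adjusted p = 0.00561).

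The other 6 did not pass in SHR against WKY. miR-7a-5p ranged from 895 to 1581 RPM in WKY (median 1460) and from 1385 to 1952 RPM in SHR (median 1639), and 6 of 6 SHR libraries lay above the WKY mean. Its log2 fold change of 0.27 ± 0.13 (SE) had a 95% interval of 0.01 to 0.53 but a limma adjusted p of 0.132, and without WKY replicate 3, the library at 895 RPM, it was 0.15 (QDG against WKY 0.13). For miR-128-3p the WKY mean was 742 ± 49.8 RPM and the SHR mean 851 ± 122 RPM (SD, n = 6 each), and 4 of 6 SHR libraries were above every WKY library while the other 2 lay below the WKY mean (log2 0.19, adjusted p = 0.188). Both passed after TMM scaling, miR-7a-5p at a log2 fold change of 0.37 (adjusted p = 0.0471) and miR-128-3p at 0.29 (adjusted p = 0.02997), which took the count from 3 to 5 of 9.

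miR-9a-5p, the neurogenesis miRNA, ranged from 357.5 to 583 RPM in WKY (median 476), from 317.5 to 535 RPM in SHR (median 374) and from 375 to 545 RPM in QDG (median 427). The 3 ranges overlapped almost fully, and the log2 fold change of SHR against WKY was -0.18 (95% interval -0.45 to 0.09, adjusted p = 0.371). Its other arm miR-9a-3p had group means of 17.8 ± 4.70 (WKY), 16.3 ± 5.34 (SHR) and 16.4 ± 4.57 RPM (QDG; SD, n = 6 each; log2 -0.15 for SHR against WKY, adjusted p = 0.670). miR-138-5p, the dendritic spine miRNA, averaged 2.20 ± 0.797 RPM in WKY against 2.13 ± 1.02 RPM in SHR, a log2 fold change of -0.05 (95% interval -0.44 to 0.35, adjusted p = 0.879) whose sign turned under TMM. miR-124-3p averaged 1.13 ± 0.446 RPM in WKY, 0.786 ± 0.363 RPM in SHR and 0.675 ± 0.439 RPM in QDG (SHR against WKY log2 -0.26, 95% interval -0.68 to 0.17, adjusted p = 0.430).

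**Figure D3:**
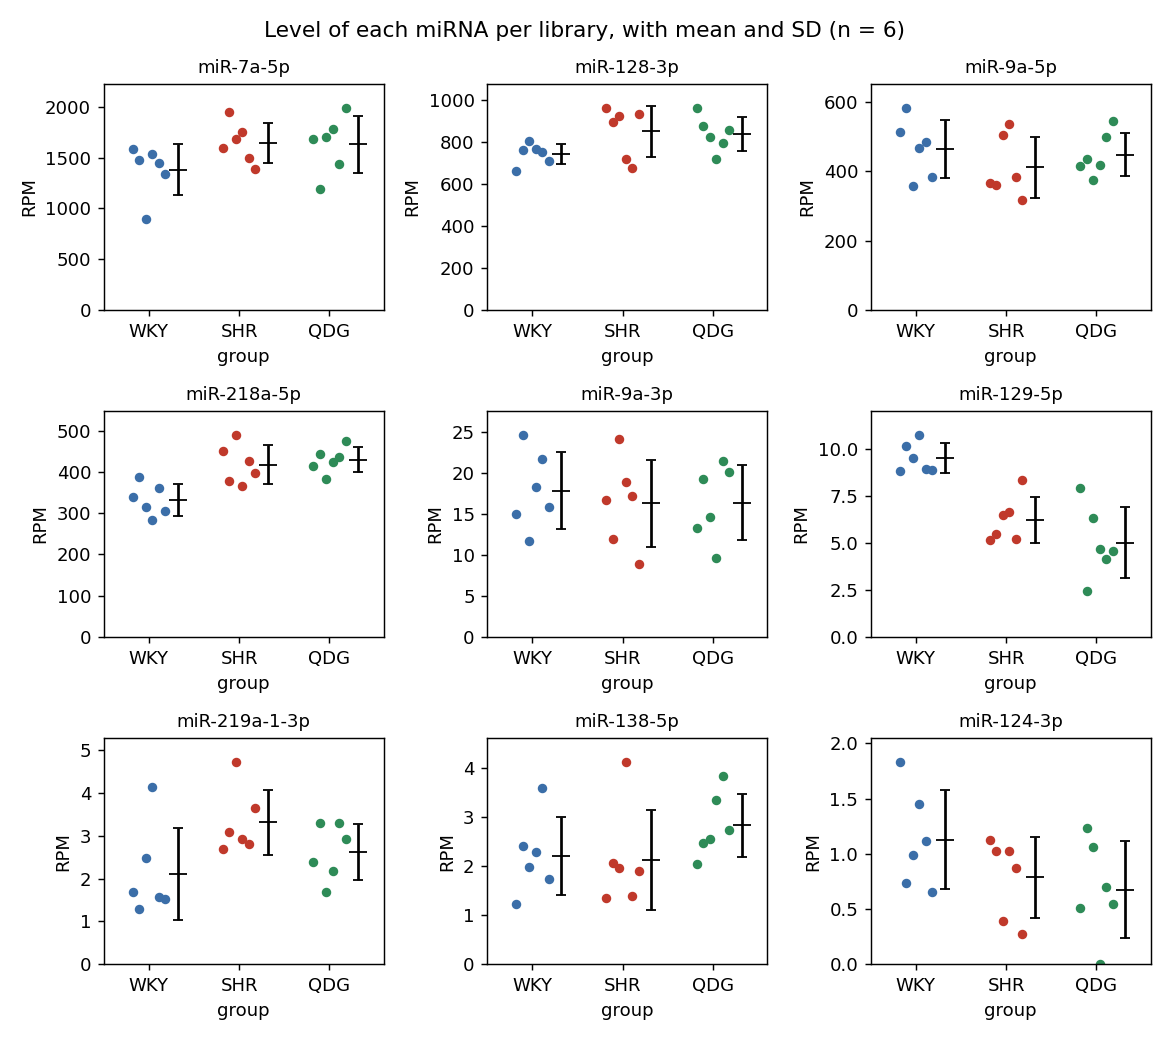
Level of each of the 9 miRNAs in RPM on linear axes from 0, with 1 point per library and the mean ± SD of the 6 libraries of each group beside the points (WKY blue, SHR red, QDG green). miR-129-5p is the panel in which the WKY libraries (8.85 to 10.8 RPM) lie above all SHR and QDG libraries, and miR-219a-1-3p shows the WKY library at 4.14 RPM.

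The second comparison, QDG against SHR, asks what the treatment changed within the hypertensive strain. None of the 9 passed with limma, none had an unadjusted p under 0.05, and none passed with edgeR, DESeq2 or limma-voom. The same limma test called 0 of all 410 miRNAs (0.0%), 15 of which (3.66%) had an unadjusted p under 0.05. The median log2 fold change was -0.02 over the 9 and 0.02 over the 410. All 9 had an adjusted p of 0.983, so the intervals say more than the p. They were narrower for the abundant miRNAs: -0.15 to 0.24 for miR-218a-5p, -0.28 to 0.24 for miR-7a-5p, -0.22 to 0.18 for miR-128-3p and -0.13 to 0.41 for miR-9a-5p. The upper end for miR-9a-5p was above the 0.33 and 0.38 called for miR-218a-5p in SHR and in QDG against WKY.

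For the scarce miRNAs the intervals of QDG against SHR were wide. miR-129-5p had 5.04 ± 1.90 RPM in QDG against 6.24 ± 1.23 RPM in SHR (SD, n = 6 each), and 4 of 6 QDG libraries lay below every SHR library. Its log2 fold change was -0.31 ± 0.17 (SE, 95% interval -0.66 to 0.05), and -0.16 without QDG replicate 2, the library at 2.48 RPM. miR-138-5p had 2.83 ± 0.648 RPM in QDG, and 5 of 6 QDG libraries were above the SHR mean (log2 0.33, 95% interval -0.07 to 0.72). miR-219a-1-3p had 2.63 ± 0.654 RPM in QDG, all 6 below the SHR mean and 3 of 6 below every SHR library (log2 -0.25, 95% interval -0.63 to 0.13). The values of miR-9a-3p (log2 0.02, 95% interval -0.42 to 0.46) and miR-124-3p (log2 -0.11, 95% interval -0.54 to 0.32) leave room for a change in either direction. miR-124-3p averaged 0.786 RPM in SHR and 0.675 RPM in QDG. Both are less than the 1 RPM added before the log, which shrinks its fold change and interval. Settings other than leaving out 1 library gave log2 values of -0.46 to -0.03 for miR-124-3p.

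The third comparison sets QDG against WKY and shares its QDG libraries with the second and its WKY libraries with the first, so it is no independent repeat of either. miR-218a-5p was higher and miR-129-5p lower, 2 of 9, where 73 of 410 miRNAs passed (17.8%), 30 of them higher (7.32%) and 43 lower (10.5%). After TMM scaling the split over all miRNAs was 50 higher and 32 lower, that is 61.0% higher in place of 41.1%. Groups did not overlap for 1 of the 9 (miR-129-5p) and for 8.05% of the 410, and the median log2 fold change was 0.17 over the 9 and -0.06 over the 410.

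miR-218a-5p stood at 429 ± 30.6 RPM in QDG (SD, n = 6), with 5 of 6 libraries above every WKY library, and its log2 fold change against WKY was 0.38 ± 0.10 (SE, 95% interval 0.18 to 0.57, adjusted p = 0.00528). miR-129-5p had a log2 fold change of -0.86 ± 0.17 (SE, 95% interval -1.21 to -0.51, adjusted p = 0.000516), its QDG mean being 0.528 of the WKY mean in RPM. With a pseudocount of 5 RPM this fold change was -0.55. miR-7a-5p (log2 0.25, adjusted p = 0.188) and miR-128-3p (log2 0.17, adjusted p = 0.245) each had 4 of 6 QDG libraries above every WKY library and did not pass. miR-219a-1-3p (log2 0.26, adjusted p = 0.367), miR-138-5p (0.28, 0.351), miR-124-3p (-0.37, 0.241), miR-9a-3p (-0.13, 0.734) and miR-9a-5p (-0.04, 0.855) did not pass either, and the sign of miR-9a-5p turned under TMM.

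**Figure D4:**
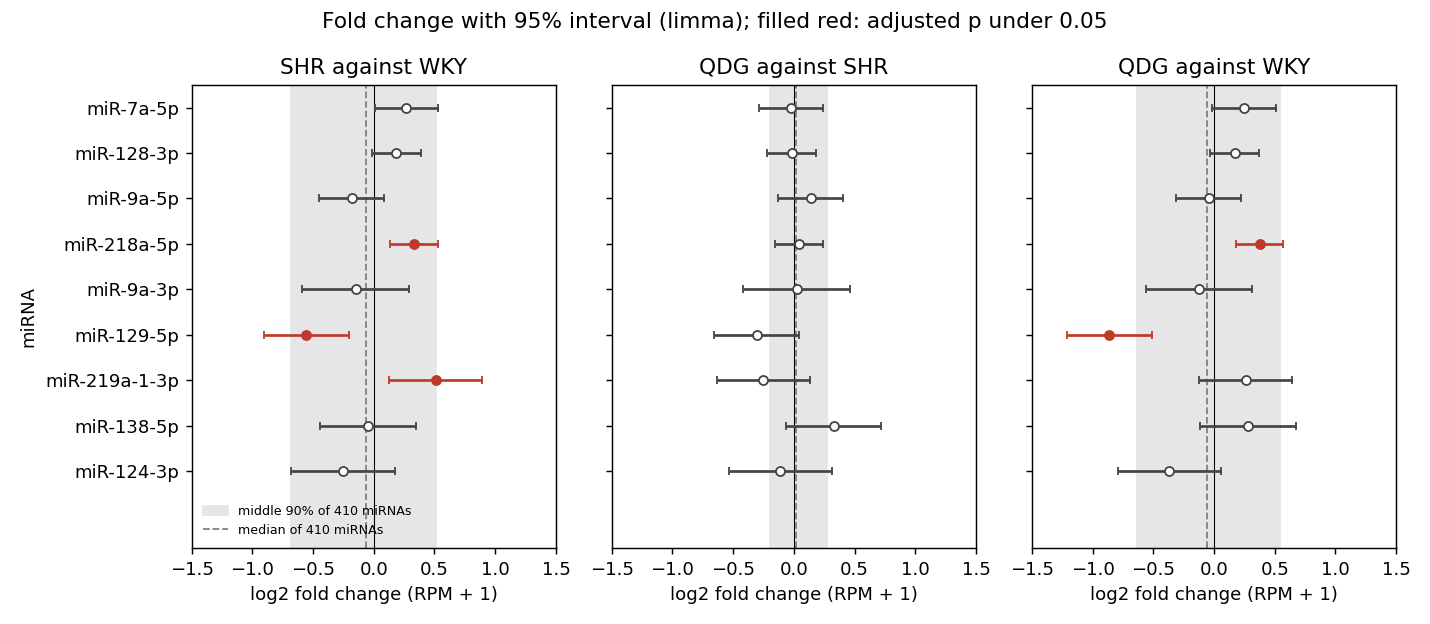
Log2 fold change on RPM + 1 (horizontal) of each miRNA in the 3 comparisons with its 95% interval from limma; filled red points have an adjusted p under 0.05, the grey band holds the middle 90% of the 410 miRNAs tested and the dashed line is their median. miR-218a-5p (0.33 and 0.38) and miR-129-5p (-0.55 and -0.86) are filled in both comparisons with WKY, miR-219a-1-3p (0.51) in SHR against WKY, and no point is filled in QDG against SHR.

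The hairpin partners were followed as a further readout. Most members came nearly all from 1 arm. miR-218a-5p had 38882 reads over the 18 libraries against 3 from each of its other arms. miR-128-3p, which has 2 hairpins, had 80133 against 91 of miR-128-1-5p (0.113% of both, Wilson 95% interval 0.0924 to 0.139%, counting error only). The miR-219a-1 hairpin was the exception, with 267 reads of miR-219a-1-3p, and with miR-219a-5p making up 31.7% of the reads of both (Wilson 95% interval 27.3 to 36.5%), although miR-219a-5p can also come from other hairpins. The WKY mean of miR-219a-5p was 0.890 ± 0.311 RPM, its SHR mean 1.44 ± 0.252 RPM and its QDG mean 1.43 ± 0.480 RPM (SD, n = 6 each). All 6 SHR libraries were above its WKY mean, but it did not pass (SHR against WKY log2 0.38 ± 0.17 SE, adjusted p = 0.118).

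For 2 pairs of arms, both had at least 10 reads in every library, which allowed their ratio to be tested. The miR-9a arms each come from 3 hairpins and miR-7a-5p comes from 2, so these ratios are pooled over hairpins. miR-7a-1-3p is named for only 1 of the miR-7a hairpins. The ratio of miR-9a-5p to miR-9a-3p reads averaged 26.8 ± 4.63 over WKY, 26.6 ± 5.83 over SHR and 28.9 ± 7.72 over QDG libraries (SD, n = 6 each). The ratio of miR-7a-5p to miR-7a-1-3p reads was 124.1 ± 32.1, 127 ± 18.4 and 122 ± 37.2 in the same order. No difference between groups was detected in the 6 two-sided exact permutation tests (exact p 0.561 to 0.892, all 0.892 after Benjamini-Hochberg adjustment over the 6, smallest possible p 0.00216). The differences in log2 ratio were between -0.10 and 0.11. miR-7a-1-3p itself had 11.4 ± 1.60, 13.0 ± 1.31 and 13.95 ± 2.48 RPM in WKY, SHR and QDG, and miR-7b had 11.2 ± 2.47, 10.8 ± 3.31 and 10.6 ± 2.55 RPM (SD, n = 6 each). Of the 18 listed partner strands and sister copies 14 were in the files and 5 could be tested, and none of the 5 passed with limma in any comparison, 1 having an unadjusted p under 0.05 (miR-219a-5p in SHR against WKY). Of the 410 miRNAs, 23.2% passed in SHR against WKY, 0.0% in QDG against SHR and 17.8% in QDG against WKY. After TMM scaling miR-7a-1-3p passed in QDG against WKY (adjusted p = 0.0488).

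**Figure D5:**
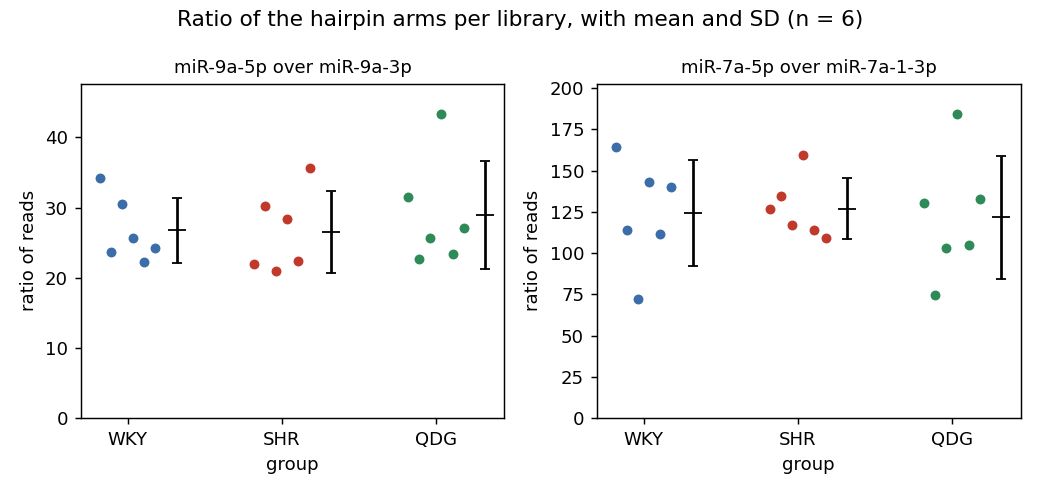
Ratio of the reads of 2 hairpin arms in each library (vertical, linear from 0), pooled over hairpins, with the mean ± SD of the 6 libraries of each group. The panels show miR-9a-5p over miR-9a-3p and miR-7a-5p over miR-7a-1-3p. The groups overlap in both panels, at 20.9 to 43.3 for miR-9a and at 72.4 to 184 for miR-7a.

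Other miRNAs known from brain were read from a list of 22, of which 15 were in the files and 8 could be tested. miR-328a-3p was the most abundant at 948 RPM, followed by miR-488-3p at 19.2 RPM and miR-384-3p at 4.81 RPM, and none of these 3 passed in any comparison. The shares over all 410 miRNAs were 23.2% in SHR against WKY, 0.0% in QDG against SHR and 17.8% in QDG against WKY. miR-135a-5p was the 1 of 8 that passed, higher in SHR against WKY and in QDG against WKY, and 0 of 8 passed in QDG against SHR. It ranged from 0.447 to 1.86 RPM in WKY, from 0.810 to 4.97 RPM in SHR and from 1.45 to 4.70 RPM in QDG, so the groups overlapped, on 2 to 29 reads per library. Its mean rose from 0.974 ± 0.680 RPM in WKY to 3.10 ± 1.77 RPM in SHR and was 3.10 ± 1.14 RPM in QDG (SD, n = 6 each). The log2 fold changes against WKY were 0.99 ± 0.28 in SHR (SE, adjusted p = 0.0116) and 1.07 ± 0.28 in QDG (adjusted p = 0.00716). These values moved with the settings, from 0.42 and 0.43 with a pseudocount of 5 RPM to as much as 1.70 (DESeq2) and 1.785 (limma-voom), all past the threshold.

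Glial miRNAs are given because miR-219a-1-3p is on the glial list. All 5 listed were in the files. miR-219a-2-3p, at means of 0.284 RPM in WKY, 0.210 in SHR and 0.0636 in QDG, was too scarce to test. Its sequence differs from miR-219a-1-3p by 7 substitutions, some of them in the seed. The other 4 could be tested. In SHR against WKY 1 passed, miR-219a-1-3p, and the median log2 fold change of the 4 was 0.35 against -0.07 over the 410 miRNAs. That median includes miR-219a-1-3p itself, beside miR-219a-5p, miR-338-3p and miR-338-5p, and is no independent support for its call. In QDG against WKY 1 passed, miR-338-5p, which rose from 17.7 ± 3.30 to 25.3 ± 4.34 RPM (SD, n = 6 each; log2 0.49 ± 0.14 SE, adjusted p = 0.0132, lost without WKY replicate 6 at 0.0510). None passed in QDG against SHR. Over the 410 miRNAs, 23.2% passed in SHR against WKY, 17.8% in QDG against WKY and 0.0% in QDG against SHR. miR-338-5p passed in SHR against WKY as well after TMM scaling (adjusted p = 0.0332), after RLE scaling by DESeq2's size factors (0.0463) and with DESeq2 (0.0375), and its other arm miR-338-3p passed in QDG against WKY after TMM scaling (0.0417), without WKY replicate 2 (0.0259) or without QDG replicate 4 (0.0316). The summed level of the glial list was 49.2 to 78.4 RPM in WKY, 52.1 to 89.97 in SHR and 56.8 to 90.2 in QDG. It came mainly from the arms miR-338-3p (41.9 RPM) and miR-338-5p (21.7 RPM), which oligodendrocytes share with other cells. Whether glia had a part in the value of miR-219a-1-3p was not tested.

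Markers of the other cell types of the heart were read in the same fits. For comparison, 23.2% of all 410 miRNAs passed in SHR against WKY, 0.0% in QDG against SHR and 17.8% in QDG against WKY. Of the 8 heart muscle miRNAs 2, miR-1-3p and miR-208b-3p, were higher in SHR against WKY and in QDG against WKY. The most abundant, miR-1b, did not pass in any comparison. Log2 fold changes were above 0 for 3 of the 8 in SHR against WKY and for 2 of the 8 in QDG against WKY. Of the 5 leukocyte miRNAs 1 was higher in SHR against WKY (miR-155-5p) and 2 in QDG against WKY (miR-155-5p and miR-142-3p). Log2 fold changes were above 0 for 3 of the 5 in SHR against WKY and for 4 of the 5 in QDG against WKY. The most abundant, miR-150-5p, lay lower in both, at -0.24 and -0.27, without passing (limma adjusted p = 0.102 and 0.0815). The sums of the 5 were 1094 to 1563 RPM in WKY, 1223 to 1407 in SHR and 1184 to 1433 in QDG. No marker of endothelium (2 miRNAs), smooth muscle (4), red blood cells (3), fibroblasts (3) or skeletal muscle (1) passed in any comparison. The part of these cells in the differences of miR-218a-5p and miR-129-5p was not tested.

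The miRNAs whose levels followed each member most closely over the 18 libraries were found by the root mean square difference of log2(RPM + 1) after each miRNA's own mean was removed, among 244 other miRNAs of at least 10 RPM. All values of a library share its scaling. For miR-218a-5p they were miR-363-3p (0.168) and miR-3559-5p (0.173), against a median of 0.32 over the 244 and a spread of 0.214 of miR-218a-5p about its own mean. For miR-129-5p they were miR-351-5p (0.256) and miR-1839-3p (0.311), against a median of 0.472 and a spread of 0.454. miR-351-5p itself stood lower in both comparisons with WKY, by log2 values of -0.62 and -0.62, and near 0 in QDG against SHR. Differences between groups entered the choice of the nearest miRNAs, so this likeness to miR-129-5p was partly fixed by the choice. miR-363-3p did not share the difference of miR-218a-5p in SHR against WKY, at 0.02 beside 0.33, and had 0.18 in QDG against SHR and 0.21 in QDG against WKY. miR-128-3p lay closest to the endothelial miR-126a-3p (0.15) and to miR-192-5p (0.157), little under its own spread of 0.169. miR-7a-5p lay closest to miR-320-3p (0.172) and miR-192-5p (0.194), with a spread of 0.261. For miR-9a-5p the nearest was miR-7b (0.218), then let-7g-5p (0.227), little under its own spread of 0.246. For the other scarce miRNAs the smallest differences were 0.297 for miR-219a-1-3p (miR-15b-5p, own spread 0.363) and 0.289 for miR-9a-3p (miR-146a-3p, own spread 0.388). They were 0.286 for miR-138-5p (miR-15a-5p, own spread 0.341) and 0.277 for miR-124-3p (miR-206-3p, own spread 0.35). A miRNA that did not vary at all would differ from a member by that member's own spread.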

How the data were processed

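Small RNA libraries were made from 1 µg of heart RNA taken up in Trizol, with a NEBNext small RNA kit, per the labels' protocols. FastQC, TopHat2 and limma are named in the submitters' processing notes, without versions or roles. The miRNA counter, genome build and annotation: not given in the sources used here. The deposited values are a normalized read count per mature miRNA, per the file headers, and were used as a signal. They are whole multiples of what 1 read is worth in each library, with column sums above 1000000, and 10782 of 10782 values came within 0.01 of a whole read.

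Groups and replicate numbers came from the library titles. Values were taken as log2(RPM + 1), a scale that understates the change of scarce miRNAs. The test took miRNAs that reached 1 RPM in 6 or more libraries, 410 of 599 and all 9 neuron-enriched ones. limma (3.58.1, in R 4.3.3; variance trend and robust moderation, no covariate) was fitted to all 18 libraries, with Benjamini-Hochberg adjustment over the 410 and a threshold of 0.05. Alternatives on the recovered reads were DESeq2 (1.42.0), limma-voom and the quasi-likelihood test of edgeR (4.0.16). With edgeR the calls numbered 89, 0 and 83 in SHR against WKY, QDG against SHR and QDG against WKY. Further alternatives changed the pseudocount, filter, scaling, replicate block and libraries. Arm ratios were compared with exact permutation tests. No 2 libraries of a group agreed within sampling noise (smallest chi-square per degree of freedom 45.5). The limma script was tested on simulated data.

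The members and lists were chosen with earlier results of these data known. Named were every member, partner strands of at least 1 RPM, called or the 3 most abundant miRNAs of the brain and glial lists, the 2 miRNAs nearest to each member, and miRNAs sharing a seed. For scarce members 1 nearest miRNA is given. The fold changes of miR-351-5p and miR-363-3p, the levels of miR-219a-2-3p and the partly matching seeds were added after their values were seen. The same holds for the called muscle and leukocyte miRNAs and for the fold changes of miR-150-5p.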

Additional observations from a re-analysis of the deposited data

Results flagged for a closer look

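Of 33 groups of 6 libraries checked for a single library far from the others (9 miRNAs and 2 arm ratios in 3 groups), 2 were set apart by Dixon's criterion at 95%, and chance sets apart about 1 in 20. miR-7a-5p in WKY replicate 3 stood at 895 RPM, below the other 5 WKY libraries at 1334 to 1581 RPM, a gap of 0.701 of the group's range on the scale of log2(RPM + 1). miR-138-5p in SHR replicate 4 stood at 4.11 RPM, above the other 5 SHR libraries at 1.35 to 2.05 RPM, a gap of 0.663 of the range on that scale.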

How the results depend on the processing

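miR-218a-5p and miR-129-5p kept their direction and stayed under the threshold against WKY in both comparisons under every alternative that tested them, with log2 values of 0.28 to 0.43 and -0.63 to -0.38 for SHR, and 0.33 to 0.46 and -0.99 to -0.55 for QDG. A mean of at least 10 RPM removed miR-129-5p and the other 3 scarcest miRNAs from the test, and the number of members called was then 1 in SHR against WKY and 1 in QDG against WKY. TMM scaling gave 5 in SHR against WKY, and miR-128-3p also passed under DESeq2's size factors (RLE, adjusted p = 0.0451) and DESeq2 (0.0253). Without WKY replicate 1 and SHR replicate 5 together, miR-218a-5p had 0.33 (adjusted p = 0.0223) and miR-129-5p -0.53 (0.0467) in SHR against WKY. Besides the losses given above, miR-219a-1-3p in SHR against WKY did not pass with a pseudocount of 5 (log2 0.23, adjusted p = 0.0566), with no filter (0.0603) or with only the 2 groups fitted (0.0665). Leaving out 1 library at a time gave 2 to 3 members called in SHR against WKY, 0 in QDG against SHR and 2 in QDG against WKY. The same replicate numbers do not pair the libraries (correlations of their deviations -0.152 to 0.452). With the replicate block, 2, 0 and 2 members were called, miR-219a-1-3p being lost (adjusted p = 0.0744), and 93, 0 and 77 of the 410 miRNAs.

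Signs turned for values near 0 that did not pass. In SHR against WKY these were miR-138-5p (TMM 0.027, RLE 0.010, edgeR 0.052, DESeq2 0.079), miR-7b (TMM 0.022, DESeq2 0.025), miR-488-3p (TMM 0.040, RLE 0.015, edgeR 0.010, DESeq2 0.037, limma-voom 0.00085) and miR-328a-3p (-0.070 without WKY replicate 1 and SHR replicate 5 together). In QDG against SHR they were miR-218a-5p (-0.0055 when scaled without the 10 most abundant miRNAs), miR-9a-3p (-0.024 with that scaling, RLE -0.0071, edgeR -0.0074, DESeq2 -0.022) and miR-135a-5p (edgeR -0.011, DESeq2 -0.038). In QDG against WKY they were miR-9a-5p (TMM 0.041, RLE 0.00017) and miR-328a-3p (TMM 0.036).

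Leaving out 1 library at a time also moved values across 0, none of which passed. In SHR against WKY the values and their ranges were miR-138-5p (-0.201 to 0.0614), miR-7b (-0.168 to 0.0498), miR-328a-3p (-0.0823 to 0.0901) and miR-488-3p (-0.158 to 0.0076), and the log2 arm ratios of miR-9a (-0.113 to 0.0512) and miR-7a (-0.0806 to 0.156). In QDG against SHR they were miR-124-3p (-0.203 to 0.029), miR-9a-3p (-0.124 to 0.154), miR-7a-5p (-0.0824 to 0.066), miR-128-3p (-0.0799 to 0.0273), miR-219a-5p (-0.085 to 0.0736), miR-7b (-0.128 to 0.0818) and miR-135a-5p (-0.126 to 0.222), and the log2 arm ratios of miR-9a (-0.0105 to 0.204) and miR-7a (-0.234 to 0.0256). In QDG against WKY they were miR-9a-5p (-0.115 to 0.0258), miR-9a-3p (-0.231 to 0.0058), miR-7b (-0.179 to 0.0071), miR-328a-3p (-0.156 to 0.016) and miR-384-3p (-0.164 to 0.0699), and the log2 arm ratios of miR-9a (-0.0337 to 0.165) and miR-7a (-0.184 to 0.0914). The cause was not tested.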
